A study of Mus musculus with 7 samples.

Results

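The circadian clock genes examined here are Clock, Arntl (also called Bmal1), Npas2, Per1, Per2, Per3, Cry1, Cry2, Nr1d1 (also called Rev-erb alpha) and Dbp, which are 10 of the 23413 gene symbols counted in each cortex library. They are defined by gene name, and all 10 had enough reads to be tested. RNA was sequenced from the cortex of APP/PS1 mice, strain B6.Cg-Tg(APPswe,PSEN1dE9)85Dbo/Mmjax, which carry mutant human APP and presenilin 1 transgenes and serve as a model of amyloid deposition in Alzheimer's disease. All mice ate chow until 6 months of age, and were then housed singly and given isocaloric meals of a carbohydrate-rich control diet (CD, called SD in the labels, n = 4) or a ketogenic diet (KD, n = 3) until 13 months of age. CD supplied 74% of energy as carbohydrate and 16% as fat, and KD supplied under 0.5% as carbohydrate and 90% as fat, with 10% as protein in both. Both groups carried the transgenes and no wild-type cortex was analysed here, so the values describe diet within the model only.

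The clock is a loop of transcription and repression that nearly every mammalian cell runs with a period of about a day. CLOCK, or its paralogue NPAS2, pairs with ARNTL and binds E-boxes in the Per, Cry, Nr1d1 and Dbp genes. PER and CRY proteins accumulate and shut that activity off, while NR1D1 represses Arntl through the RORE element and DBP activates genes, Per3 among them, through the D-box. Arntl messenger RNA therefore peaks at about the opposite time of day to Nr1d1 and Dbp messenger RNA, and a single measurement of any of these genes depends on the hour at which the tissue was taken. The mice lived in a cycle with 12 h of light, and tissue was taken after a morning blood measurement that followed a 12-h overnight fast. The hour at which each mouse was dissected is not given in the sources used here, so the part of collection hour in the values below was not tested.

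The elements of the loop can be read in the promoters of the members. RefSeq start sites on GRCm38.p6 gave windows of 250 bases before to 50 bases after the start for 9 of the 10 members, 13 windows in all. Both strands were searched for the E-box (CACGTG), the variant E-prime box (CACGTT), the D-box (TTATGTAA or TTACGTAA), the RORE core (TAGGTCA) and the cAMP response element (TGACGTCA). In the mm10 annotation, Arntl spans chr7:113207465-113314126 on the plus strand, Dbp chr7:45705088-45710203 on the plus strand, Nr1d1 chr11:98767932-98775333 on the minus strand and Per3 chr4:151003652-151044665 on the minus strand, all as protein-coding genes. The 4 windows below belong to the members that the results turn on (Arntl, Dbp and Nr1d1) and to Per3, the only matched member with a D-box, each 5′ to 3′ on the strand of the gene, with capitals for matched letters.
Arntl, chr7:113207261-113207560, plus strand: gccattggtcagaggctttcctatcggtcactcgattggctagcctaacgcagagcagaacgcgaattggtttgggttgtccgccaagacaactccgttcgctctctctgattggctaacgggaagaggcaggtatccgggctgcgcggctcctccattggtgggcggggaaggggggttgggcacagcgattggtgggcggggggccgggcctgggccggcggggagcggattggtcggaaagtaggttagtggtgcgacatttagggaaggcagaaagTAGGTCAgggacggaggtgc
Dbp, chr7:45704997-45705296, plus strand: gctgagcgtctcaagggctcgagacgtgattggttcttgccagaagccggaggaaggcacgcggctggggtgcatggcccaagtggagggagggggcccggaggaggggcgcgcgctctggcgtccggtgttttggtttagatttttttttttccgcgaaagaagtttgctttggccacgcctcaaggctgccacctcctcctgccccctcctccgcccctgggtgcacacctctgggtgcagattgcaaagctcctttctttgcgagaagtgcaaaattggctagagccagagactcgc
Nr1d1, chr11:98775328-98775627, minus strand: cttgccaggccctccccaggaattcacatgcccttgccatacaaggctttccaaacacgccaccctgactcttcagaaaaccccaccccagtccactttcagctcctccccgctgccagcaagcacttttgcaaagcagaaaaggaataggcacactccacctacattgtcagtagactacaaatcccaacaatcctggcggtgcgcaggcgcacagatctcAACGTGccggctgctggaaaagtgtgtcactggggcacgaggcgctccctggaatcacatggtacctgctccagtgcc
Per3, chr4:151044616-151044915, minus strand: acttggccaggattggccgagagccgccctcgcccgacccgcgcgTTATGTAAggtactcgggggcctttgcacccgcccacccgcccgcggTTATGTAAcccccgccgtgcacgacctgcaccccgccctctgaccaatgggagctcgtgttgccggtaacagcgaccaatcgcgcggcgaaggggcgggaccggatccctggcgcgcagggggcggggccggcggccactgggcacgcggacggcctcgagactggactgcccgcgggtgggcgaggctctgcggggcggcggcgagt

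Arntl carried a RORE core 30 bases after its second annotated start, a word found in 2.61% of all 32851 promoter windows. Nr1d1 carried an E-prime box 28 bases before its start (4.68% of windows). Per3 carried a pair of D-boxes, 205 and 158 bases before its start (1.06% of windows held any D-box). Dbp had none of the searched words within its window. Outside the windows printed, E-boxes (7.15% of windows) were found in Per1 and Cry1, E-prime boxes in Cry1 and Cry2, and no member window held the cAMP response element, which 1.79% of windows held. These matches describe letters in a short window and do not show binding.

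Each library held between 22272883 and 36614954 counts. Expression is given as CPM, a gene's counts divided by the library's total and scaled with edgeR's TMM factors, and libraries are named by diet and replicate, as in CD 1. Some libraries stood apart in tissue markers. CD 4 had a mean log2 CPM of 3.54 over the olfactory bulb markers against −0.59 to 0.95 in the other libraries, and KD 3 had 2.88 over the ventral forebrain markers against −0.57 to 0.24. Excitatory cortical neuron markers, which define the labelled tissue, were present in all libraries but lowest in CD 4 (6.46) and KD 3 (5.95), against 6.82 to 7 in the other 5 libraries. CD 3 and KD 3 were low in oligodendrocyte markers (6.54 and 6.46, against 7.53 to 8.49 elsewhere), CD 1 was high in choroid plexus markers (3.42, against −0.09 to 2.08) and CD 4 in meningeal fibroblast markers (5.08, against 2.54 to 3.77). Of the 8 markers of the suprachiasmatic nucleus, the hypothalamic pacemaker, Vip and Rgs16, which other brain regions also express, had 1184 to 2992 and 203 to 671 counts per library. The other 6 had at most 19 counts (Six3 in KD 3), with Avp at most at 3. Xist was at 248 to 531 CPM in CD 1, CD 2, KD 1 and KD 2 and at most 3.08 CPM in CD 3, CD 4 and KD 3, so each diet held libraries of both kinds, although the labels give no sex. In bulk tissue, fewer cells that express a gene and less RNA per cell cannot be told apart.

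All 10 members were expressed in every library, with Cry2 the most abundant in both diets. Levels between genes are compared per kilobase of exon. In CD cortex, Cry2 was highest at 19.8 ± 1.46 CPM per kilobase (SD, n = 4). Nr1d1 followed at 13.7 ± 1.44, Clock at 11.8 ± 0.271 and Cry1 at 9.87 ± 2.85. Arntl was at 7.63 ± 1.66, Per1 at 6.47 ± 0.789 and Npas2 at 5.63 ± 0.689 CPM per kilobase. Per2 was at 4.93 ± 0.789, Dbp at 4.69 ± 1.96 and Per3 at 4.12 ± 1.08. Per3 had the lowest mean in CD, and in KD it was Dbp (4.56 ± 0.900, n = 3, against 4.62 ± 0.813 for Per3). Only Cry2 stood above its neighbour by more than the sum of both SDs, together with Nr1d1 above Clock, and from Clock downwards each neighbouring pair lay within that sum.

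No common shift of the clock genes between diets was detected. Under KD 5 members were above and 5 below their CD level, at a median log2 fold change of −0.02, against −0.003 over all 15881 genes tested. No member passed an adjusted p of 0.05 in edgeR's quasi-likelihood test, and no gene of the genome did (0%). At an unadjusted p of 0.05 the same test called 506 of 15881 genes (3.19%), and 1 of the 10 members, Nr1d1, which was lower in KD. The likelihood-ratio test called 1 gene after adjustment, and DESeq2 and limma-voom called 0. With TMM scaling, CD and KD ranges were separate for 653 genes (4.11%) and for 1 member, again Nr1d1, whose ranges overlapped with library size alone.

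**Figure D1:**
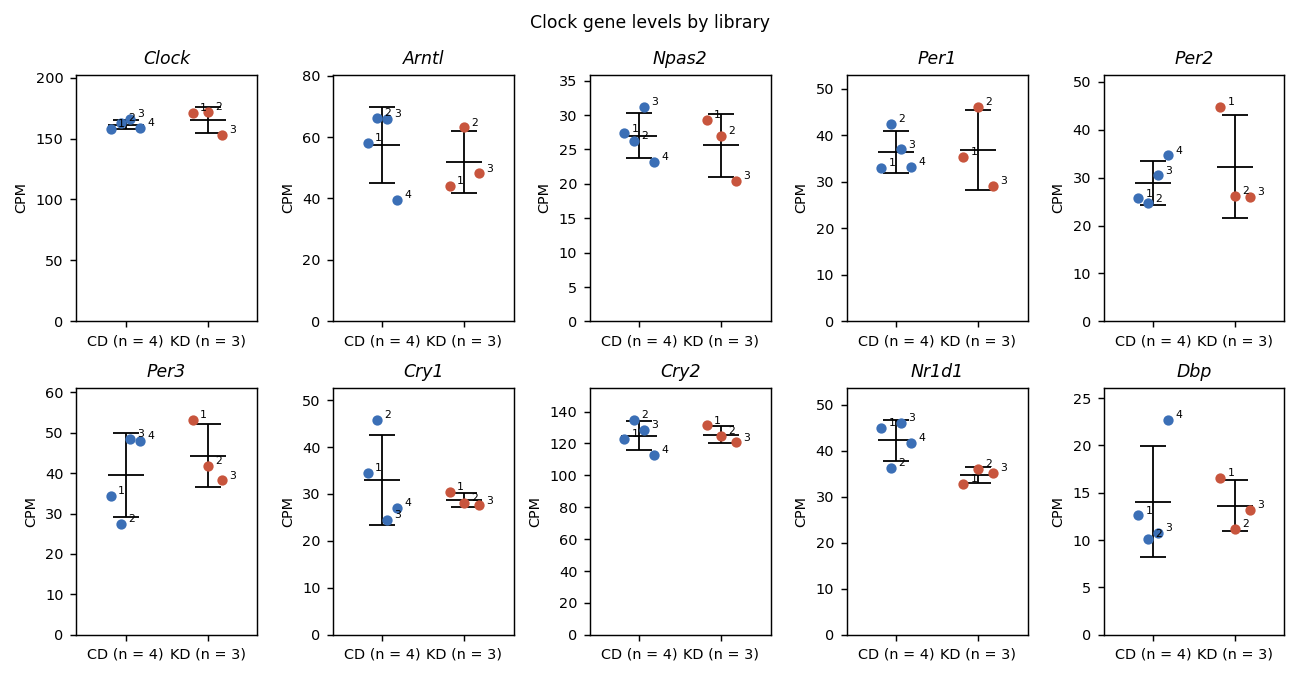
Level of each clock gene in CPM (y axis, from 0) in the CD (n = 4, blue) and KD (n = 3, red) cortex libraries. Points are libraries, numbered by replicate, and bars give the mean and SD. With the TMM scaling shown, the ranges overlap for every gene except Nr1d1, for which CD 2 (36.2 CPM) and KD 2 (36.1 CPM) almost touch.

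In the positive limb, Clock, which encodes the histone acetyltransferase partner of ARNTL, was the steadiest member. Its level was 158, 163, 166 and 159 CPM in CD 1 to CD 4 and 171, 172 and 153 CPM in KD 1 to KD 3. KD libraries thus included both the highest and the lowest value. The log2 fold change was 0.04 (SE 0.0743), with a 95% interval of −0.13 to 0.21, and the spread within diets was smaller than for all but 3.49% of the tested genes. Npas2, the paralogue that can replace CLOCK in forebrain, ranged from 20.5 CPM in KD 3 to 31.2 CPM in CD 3, with a log2 fold change of −0.08 (SE 0.148).

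Arntl, the obligate partner of CLOCK and NPAS2, varied far more. It was at 58, 66.2, 65.8 and 39.6 CPM in CD 1 to CD 4 and at 44.2, 63.2 and 48.1 CPM in KD 1 to KD 3. CD 4 was lowest of all, KD 1 and KD 3 were the next lowest, and KD 2 sat among the 3 high CD libraries, so the diets overlapped. The log2 fold change was −0.15 (SE 0.197), with a 95% interval of −0.60 to 0.30 and an exact two-sided permutation p of 0.543. Without CD 4, whose olfactory bulb markers were high, the log2 fold change was −0.29 (SE 0.140), with an unadjusted p of 0.0725 in edgeR's test.

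In the negative limb, Per and Cry genes encode the proteins that close the loop. Per2, whose protein scaffolds the repressor complex, was at 25.7, 24.6, 30.5 and 34.6 CPM in CD 1 to CD 4. In KD 1 to KD 3 it was at 44.8, 26.1 and 26.0 CPM. One library, KD 1, was above all CD libraries and the other two KD libraries lay inside the CD range. The log2 fold change of 0.16 (SE 0.214) turned to −0.15 without KD 1.

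Per3 was at 34.3, 27.4, 48.4 and 48.1 CPM in CD 1 to CD 4 and at 53.1, 41.8 and 38.2 CPM in KD 1 to KD 3. KD 1 was again the highest library, but CD 3 and CD 4 came close to it and the groups overlapped. KD over CD gave a log2 fold change of 0.17 (SE 0.213; 95% interval −0.32 to 0.65) and it fell to 0.02 without KD 1 and to 0.03 without CD 2. Per1, an immediate target of light and glucocorticoid signals as well as of the clock, spanned 33.0 to 42.5 CPM in CD and 29.2 to 46.1 CPM in KD, with a log2 fold change of 0.02 (SE 0.164) and an exact permutation p of 1.

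Cry1, the slower and stronger of the cryptochrome repressors, was at 34.5, 45.7, 24.6 and 27.1 CPM in CD 1 to CD 4 and at 30.5, 28.0 and 27.6 CPM in KD 1 to KD 3. CD 2 stood above every other library and the KD values fell inside the CD range. Between diets the log2 fold change was −0.20 (SE 0.203) and came to −3.60e-05 without CD 2. Cry2 was nearly as steady as Clock, at 113 to 135 CPM in CD and 121 to 131 CPM in KD, with a log2 fold change of 0.01 (SE 0.0834) and a 95% interval of −0.18 to 0.20.

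Nr1d1, the haem-binding nuclear receptor that represses Arntl, was the member with the most regular diet difference. It was at 45, 36.2, 46.1 and 41.7 CPM in CD 1 to CD 4 and at 32.8, 36.1 and 35.2 CPM in KD 1 to KD 3. Every KD library was below every CD library, but the nearest pair, CD 2 and KD 2, differed by less than 1 CPM. With library size alone instead of TMM the ranges overlapped, with KD 3 (log2 CPM 5.16) above CD 2 (5.15). The exact two-sided permutation p was 0.0857 under that scaling. The values that follow are with TMM. The log2 fold change was −0.28 (SE 0.104), with a 95% interval of −0.52 to −0.05. The unadjusted p was 0.0248 and the adjusted p 0.979 in edgeR's quasi-likelihood test, and the exact two-sided permutation p was 0.0571, where 0.0286 is the smallest that 4 against 3 libraries allow. Nr1d1 stayed lower in KD whichever library was left out, with log2 fold changes of −0.35 to −0.24, but the unadjusted p in edgeR's test rose to 0.0609 without CD 1, 0.0582 without CD 3, 0.0806 without KD 1 and 0.0518 without CD 4 and KD 3 together. The exons of Nr1d1 share 263 bases (8.55% of its exon length) with Thra on the opposite strand, which was at 368 CPM in KD 3 against 226 to 267 CPM elsewhere, and whether the counting used strand is not stated.

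Dbp, a PAR bZIP transcription factor that carries clock timing to metabolic genes, had the widest spread of the members. It was at 12.6, 10.1, 10.8 and 22.7 CPM in CD 1 to CD 4 and at 16.5, 11.2 and 13.2 CPM in KD 1 to KD 3. CD 4 had 2.24 times the level of CD 2, both on the same diet, and all KD values fell inside the CD range. Its log2 fold change was −0.04 (SE 0.292), the exact permutation p was 0.971, and the 95% interval of −0.71 to 0.62 leaves room for sizeable changes in either direction. Without CD 4 it became 0.29 (SE 0.179). Dbp shares 539 bases of exon (18%) with the opposite-strand gene Sphk2, which itself lay between 14.0 and 18.9 CPM in all 7 libraries.

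**Figure D2:**
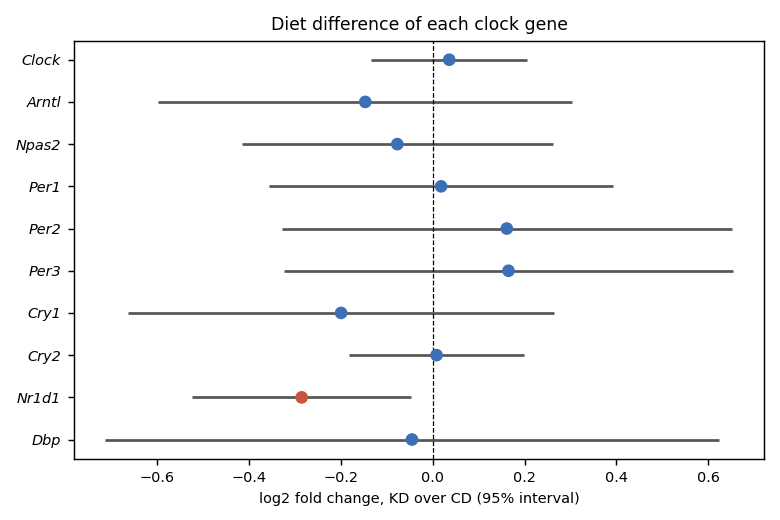
Log2 fold change of KD over CD for each clock gene (x axis) with its 95% interval from edgeR's quasi-likelihood fit, with 4 CD and 3 KD libraries. The interval of Nr1d1 (red) alone leaves out 0, and those of Clock and Cry2 are the narrowest that include it.

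From mouse to mouse, Arntl and Dbp moved in opposite directions. Ranked from low to high Arntl, the libraries were CD 4, KD 1, KD 3, CD 1, KD 2, CD 3 and CD 2. Ranked from high to low Dbp they were in the same order. Some neighbours lay close, such as CD 3 and CD 2 in Arntl (65.8 and 66.2 CPM) and KD 2 and CD 3 in Dbp (11.2 and 10.8 CPM). With library size alone instead of TMM, CD 3 was above CD 2 in Arntl (log2 CPM 6.04 and 6.02). CD 3 was also above CD 2 in Dbp (3.44 and 3.32), so the orders then differed in that pair. Over the 7 libraries, Pearson's r between the log2 CPM values was −0.949 (exact permutation p = 0.000198, adjusted p = 0.00893 over the 45 pairs of members). Spearman's rho was −1 (exact permutation p = 0.000397, adjusted p = 0.0179). That rho rests on TMM scaling, since CD 3 and CD 2 broke the order with library size alone. No other pair of members passed the adjusted threshold by either measure. Leaving out the 2 libraries farthest from the median Arntl level gave r = −0.914, and r ranged from −0.983 to −0.938 as each library was left out in turn, with −0.952 without CD 4 and −0.983 without KD 3. With 6 libraries, the exact permutation p of 0.00139 is the smallest possible, and it came to 0.0625 after adjustment except without KD 1 (0.0208).

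Within diets the direction was the same. After each diet's mean was subtracted, r was −0.972 (exact permutation within diets, p = 0.00694, adjusted p = 0.312), where 0.00694 is the smallest p that the 144 orders within diets allow, too large for a single pair to pass after adjustment. Within CD, CD 4 had the lowest Arntl and highest Dbp and CD 2 the reverse, and within KD the same held for KD 1 and KD 2. Of the 15880 other tested genes, 17 (0.107%) had an r with Arntl at or below that of Dbp.

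Of the libraries at the low-Arntl end, CD 4 and KD 3 also had the lowest excitatory cortical neuron markers (6.46 and 5.95). KD 1 (6.84) did not stand apart in that list. Rorb, a nuclear receptor of the RORE loop that also marks cortical layer 4 neurons and was named after its values were seen, was at 53.1 CPM in CD 4, 67.5 CPM in KD 3 and 110 CPM in KD 1, against 191 to 219 CPM in the 4 libraries with higher Arntl. The 3 libraries with the least Rorb were thus the 3 with the least Arntl and the most Dbp. Other excitatory neuron markers were mixed. Tbr1 and Cux2 were also lowest in those 3 libraries, but Neurod6 (158 CPM) and Fezf2 (17.9 CPM) were highest in CD 4 and Camk2a (963 CPM) in KD 1. The part of regional makeup in the opposition of Arntl and Dbp was not tested. Xist did not follow the same order, being high in KD 1 and low in CD 4 and KD 3.

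**Figure D3:**
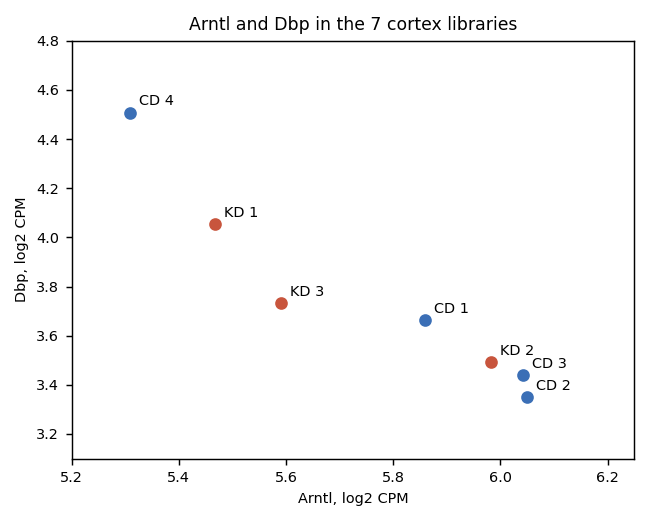
Log2 CPM of Arntl (x axis) against Dbp (y axis), with 1 point for each library (CD blue, KD red). The points fall in 1 descending order from CD 4 to CD 2 (Pearson's r = −0.949), and both diets are spread along it.

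Nr1d1 and the Per genes did not share Dbp's order. In CD 4, where Dbp was 0.76 above its 7-library mean on the log2 scale, Nr1d1 was 0.11 above its mean, Per2 0.22 and Per3 0.24. In KD 1, where Dbp was 0.30 above its mean, Per2 was 0.59 and Per3 0.38 above, but Nr1d1 was 0.24 below (a deviation of −0.24). Per2 and Per3 had r = 0.81 (exact permutation p = 0.0232, adjusted p = 0.366) and Spearman's rho of 0.964 (adjusted p = 0.0625 by exact permutation). Per3 and Cry1 had r = −0.817 (exact permutation p = 0.0244, adjusted p = 0.366), for which r ranged from −0.949 to −0.497 as single libraries were left out. Neither pair passed after adjustment. Over all 45 pairs, 21 had a negative and 24 a positive r, and the 3 pairs among Clock, Arntl and Npas2 were all positive, with the highest for Clock and Npas2 (r = 0.742, exact permutation p = 0.052, adjusted p = 0.468). The 21 pairs of these 3 genes with Per, Cry, Nr1d1 and Dbp were negative in 7 and positive in 14.

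**Figure D4:**
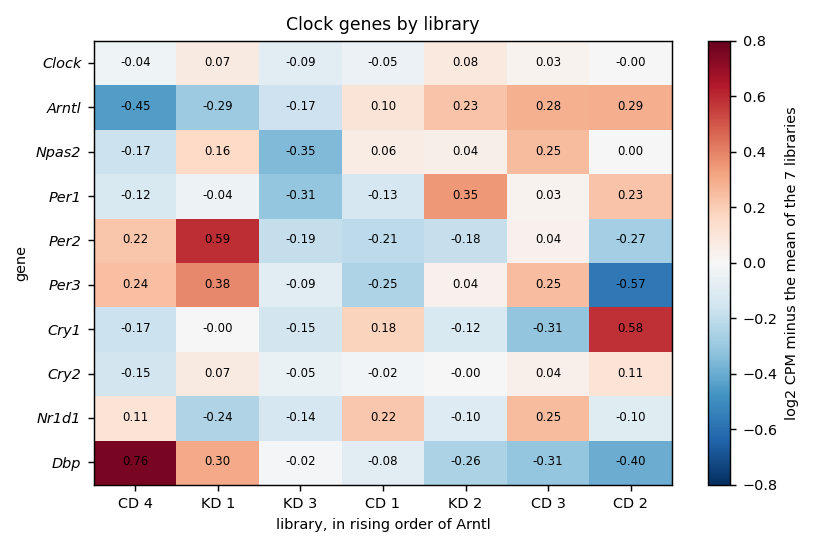
Log2 CPM of each clock gene (rows) minus its mean over the 7 libraries, with libraries (columns) in rising order of Arntl. Red is above and blue below the mean, and the Dbp row runs from 0.76 to −0.40 as the Arntl row runs from −0.45 to 0.29, while no other row falls or rises steadily.

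The wider clock machinery was examined as 25 further genes, all tested. KD levels exceeded CD levels for 7 and were below them for 18, where 51% of all tested genes were lower. None passed an unadjusted p of 0.05 in edgeR's test. Their median log2 fold change was −0.06. The number lower was 12 without KD 3, 14 without CD 2 and 16 without CD 4 and KD 3 together. The 2 genes with the smallest p were Rora, the RORE activator that competes with NR1D1, and Hlf, a PAR bZIP relative of Dbp. Rora was at 37.1, 41.9, 30.6 and 32.8 CPM in CD and 27.8, 34.5 and 20.3 CPM in KD, with a log2 fold change of −0.37 (SE 0.185) that came to −0.19 without KD 3 and −0.57 without KD 2. Hlf was at 211, 174, 187 and 260 CPM in CD and 178, 180 and 81.0 CPM in KD, with a log2 fold change of −0.51 (SE 0.272) that came to −0.22 without KD 3. In both genes KD 3 was the lowest library and the diets overlapped. Nr1d2, the paralogue of Nr1d1, named after its values were seen, was at 225, 211, 216 and 283 CPM in CD and 263, 212 and 171 CPM in KD, and its log2 fold change was −0.12 (SE 0.160).

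Signals that set the clock, or that run beside it, were followed with further lists. Of 14 glucocorticoid receptor targets tested, 13 were lower in KD, against 51% of all tested genes, with a median log2 fold change of −0.37. The list was chosen with earlier results of these data known, so its counts are not independent evidence. At an unadjusted p of 0.05 in edgeR's test, 4 of the 14 fell, against 3.19% of all genes, and none passed after adjustment (adjusted p = 0.979). These were the metallothioneins Mt2 (log2 fold change −0.95, SE 0.294) and Mt1 (−0.67, SE 0.260), which bind metals, the lipid droplet gene Plin4 (−1.23, SE 0.415) and Tsc22d3 (−0.42, SE 0.175), which encodes GILZ. Only 2 of the list passed without CD 2 and 2 without KD 3, and 1 without CD 4 and KD 3 together. In CD 3, Mt1 (29.0 CPM) and Mt2 (11.6 CPM) were as low as in KD (30.0 to 37.4 and 10.4 to 14.5 CPM). Some marker lists were also mostly lower in KD. All 7 oligodendrocyte markers were lower (median log2 fold change −0.44, list level 6.54 to 8.49 in CD and 6.46 to 8.40 in KD). So were 3 of 5 endothelial markers (median −0.31, list level 4.77 to 5.31 in CD and 4.51 to 4.89 in KD). Of these, Pecam1 and Ly6c1 had separate ranges. Of 6 interneuron markers, 4 were lower. Gad1 among them had separate ranges and a log2 fold change of −0.37, while Gad2 (0.07) and Sst (0.15) were higher. Pecam1, Ly6c1 and Gad1 were named after their values were seen. Also mostly lower were the excitatory cortical neuron (6 of 8, median −0.28) and olfactory bulb (5 of 5 tested, −1.91) lists. The same held for the choroid plexus (6 of 6, −0.81), meningeal fibroblast (6 of 6, −0.66) and suprachiasmatic nucleus (2 of 2 tested, −0.15) lists. Most markers of the astrocyte (5 of 6, median 0.06), microglia (4 of 6, 0.21), striatum (6 of 7, 0.19) and ventral forebrain (3 of 4, 2.08) lists were higher. The part of these markers in the glucocorticoid list was not tested. Per1, a clock member that glucocorticoids also induce, had a log2 fold change of 0.02. Glucocorticoid signalling itself was not tested.

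Plin4 was at 10.5, 22.6, 10.1 and 26.7 CPM in CD and 9.93, 7.81 and 4.60 CPM in KD, which did not overlap. Of 15 activity-induced immediate early genes, 12 were higher in KD but none passed an unadjusted p of 0.05 in edgeR's test. The smallest p were those of Npas4 (log2 fold change 0.83, SE 0.389) and Btg2 (0.58, SE 0.382), of which Btg2 came to 0.28 without KD 3 and 0.93 without CD 2. The list's mean log2 CPM was 4.54 in CD 2 and 4.65 in KD 2, and 3.31 to 3.87 in the other 5 libraries. Of 9 cold- and heat-responsive genes, 6 were higher and none passed, with log2 fold changes of 0.18 for Dnajb1 (0.12 without CD 4 or without KD 3) and 0.43 for Hspa1b (0.16 without KD 3, 0.03 without CD 4 and KD 3 together). Of 11 output genes with a daily rhythm in many tissues, 9 were lower and none passed, with Klf9, which is also a glucocorticoid target, at −0.32 (−0.09 without KD 3 and −0.20 without CD 2) and Klf10 at 0.33 (0.14 without CD 4).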

How the data were processed

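Cortex RNA (ribosomal RNA depleted, stranded total RNA libraries, 50-bp paired reads) from 4 CD and 3 KD mice was aligned by the authors to mm10 with STAR and counted per gene within it. The deposited files hold raw counts per gene symbol. Version, annotation and strand setting are not given in the sources used here. Groups came from the sample labels.

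Genes were filtered by expression in edgeR 4.0.16 (R 4.3.3), which kept 15881 symbols with 99.97% of counts. TMM scaling and the robust quasi-likelihood test of KD against CD were fitted over these genes, with Benjamini-Hochberg adjustment, and log2 CPM used a prior count of 2. DESeq2 1.42.0, limma-voom (limma 3.58.1), other scalings, filters and terms were alternatives. Pairs of members were tested by exact permutation over libraries (scipy 1.17.1). Replicates are separate libraries of separate mice. No libraries were duplicates, since chi-square per gene between replicates was 15.4 to 64.8. On simulated counts for KD against CD, the test recovered 48% of 198 genes changed by a log2 of 1 (15754 genes run) and 90.3% of 196 changed by a log2 of 2 (15730 genes run), with 12 and 14 false calls beside 95 and 177 true ones. The simulation drew each gene independently, without tissue differences between libraries. No change below a log2 of 1 was simulated, so recovery at the size of the members' changes is not known.

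Ranks across mice describe libraries. Dbp, the member with the fewest counts, had at least 296 counts in each. The part of counting error in the order of libraries with close values was not tested. Exon lengths and overlaps came from the mm10 gene annotation, and promoters from RefSeq (GRCm38.p6). Where symbols had changed, older ones were matched (Ciart as Gm129, Cipc as 2310044G17Rik).

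All members are named. In the lists of other clock, output, glucocorticoid, activity and temperature genes, those with an unadjusted p under 0.05 or with separate ranges are named, or else the 2 with the smallest p. The members and lists were chosen with earlier results of these data known. Some genes are in more than 1 list.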

Additional observations from a re-analysis of the deposited data

Results flagged for a closer look

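Of 39 values examined for a library standing apart within CD, 2 passed Dixon's 95% critical value for 4 libraries, and chance alone gives about 1.95. Rorb in CD 4 was at a log2 CPM of 5.73 against 7.58 to 7.62 in the other CD libraries, a gap of 0.979 of the group's range. The mean log2 CPM of the activity genes was 4.54 in CD 2 against 3.31 to 3.51 in the other CD libraries, a gap of 0.843 of the range.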

How the results depend on the processing

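Clock, Per3, Cry1, Arntl and Nr1d1 kept their direction under all 18 alternatives. For most of them this was in sign only, since Cry1 came to −3.60e-05 without CD 2 and Clock to 0.0056 without KD 2. Without KD 1, Per3 came to 0.015 and Arntl to −0.044. Pearson's r of Arntl with Dbp, under its own alternatives, stayed between −0.983 and −0.936, but Spearman's rho was −1 with TMM and not with library size alone. The number of genes past an adjusted p of 0.05 was 1 with the likelihood-ratio test and 1 with Xist as a covariate, and 0 as each library was left out. The number at an unadjusted p of 0.05 was 1036 with Xist, 923 with the replicate block, and 256 (without CD 1) to 1161 (without CD 3) as libraries were left out. Members past that threshold numbered 0 with the likelihood-ratio test (where Nr1d1 came to 0.0519), 2 with the replicate block, 0 without CD 4 and KD 3 together (an alternative chosen after seeing the data), and 0 to 1 as libraries were left out. For glucocorticoid genes, the count was 7 with DESeq2, 7 with Xist, 1 without CD 4 and KD 3, and 2 to 5 as libraries were left out. For the other clock genes it was 3 with Xist, 1 with the replicate block, and 0 to 2, with 2 without KD 2. Pairs past the adjusted threshold numbered 0 on deviations from diet means, where a single pair could not pass, and 0 to 4 as libraries were left out, with 4 without KD 1.

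Small fold changes turned sign. Per1 came to −0.0172 with Xist and −0.0414 with the replicate block. Cry2 came to −4.16e-05 with library size alone, −0.0365 with the block and −0.00461 without CD 4 and KD 3. Dbp came to 5.61e-06 with Xist, 0.278 with the block and 0.309 without CD 4 and KD 3, and Nr1d2 to 0.132 without those libraries. As libraries were left out, Npas2 ranged from −0.184 to 0.0574, Per1 from −0.178 to 0.159, Per2 from −0.147 to 0.294, Cry2 from −0.0362 to 0.0470, Dbp from −0.205 to 0.287, Nr1d2 from −0.285 to 0.0221 and Rorb from −0.832 to 0.0557. The cause was not tested. Whether replicate numbers pair the mice cannot be told from these values. Same-numbered libraries deviated together with correlations of 0.251, 0.195 and 0.098, and differently numbered libraries were not compared. The block leaves out CD 4, which has no KD partner, and gave Arntl −0.303 (past the unadjusted threshold in edgeR). Leaving out CD 4 alone gave −0.289 for Arntl, 0.287 for Dbp and −0.0362 for Cry2, so the block's values cannot be told apart from the loss of CD 4. With library size alone, 44.9% of the genes called at an unadjusted p of 0.05 were higher in KD, against 52.2% with TMM.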
